A study of Mus musculus with 12 samples.

Results

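The comparison is between spermatocytes of Phb conditional knockout mice and control spermatocytes, with 3 RNA-seq libraries in each group, 6 of the 12 libraries of the series. The libraries were chosen by their titles and genotype labels. The series asks what loss of Phb does in mouse spermatocytes and in GC2 cells, a mouse spermatocyte line, and the GC2 libraries were not used here. The knockout group is labelled Phb knock-out and Phb-cKO, and the other group is labelled Control. The sources used here do not name the Cre driver, strain, age or number of animals, or whether the controls carry Cre or floxed alleles. Seminiferous tubules were dissociated with enzymes, stained with the DNA dye Hoechst and sorted by flow cytometry, which separates germ cells by DNA content and chromatin state. The purity was checked by immunofluorescence, per the labels. Of 36987 gene rows in the deposited tables, 15957 were tested, those at or above 1 FPKM in 3 or more of these 6 libraries. FPKM gives a gene's fragments relative to transcript length and library size. Of 502 genes on 18 lists of germ cell stages and cell types, 495 had a row and 410 were tested. A gene can pass the filter through 1 group alone, so counts below describe the tested genes and not whole lists.

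Phb encodes prohibitin, which builds ring-shaped complexes with Phb2 in the inner mitochondrial membrane. Spermatogonia divide by mitosis, enter meiosis, and pass through leptotene and zygotene, when chromosomes break and pair, into pachytene, when pairing is complete and a large part of the testis-specific transcription starts. After diplotene and the meiotic divisions, haploid round spermatids elongate into sperm. In pachytene cells the X and Y chromosomes are transcriptionally silenced, and autosomal retrocopies of X-linked housekeeping genes are used in their place. Sertoli cells nurse the germ cells inside the tubule, and Leydig cells make testosterone between the tubules.

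Depth was estimated from the steps between low FPKM values at about 15.1 M to 15.8 M fragments in control and 11.2 M to 15.4 M in knockout libraries, with knockout replicate 2 the shallowest. Pearson's r across genes was 0.984 to 0.988 between replicates and 0.622 to 0.626 between groups. The mitochondrial chromosome took 11.9% to 13.3% of each control library's summed FPKM and 16.5% to 18.9% of each knockout library's. A row was called where limma on log2(FPKM + 1) gave a two-sided p under 0.05 after Benjamini-Hochberg adjustment over all tested rows. By this rule 79.4% of rows were called, 40.9% higher and 38.5% lower in knockout. At least 2-fold changes made up 11.6% (higher) and 21.6% (lower), and the groups did not overlap in 81.8% of rows. The median log2 fold change of all tested rows was 0.05. It was 0.21 with median centring and 0.28 with quantile normalization, so changes of this size depend on the scaling, and the share of higher rows among the calls went from 51.6% to 62.0% with the latter. No label names the animals behind the replicates, so the spread that the p-values rest on may be technical.

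The targeted gene differed little at the level of the whole gene. Phb, which lies on the plus strand of chromosome 11 (95666957 to 95680773 on GRCm38, ENSMUSG00000038845.11), was at 12.6, 13.3 and 13.9 FPKM in the control libraries and at 11.8, 11.3 and 11.5 in the knockout libraries. The groups did not overlap, and the difference was -0.18 on the log2 scale (adjusted p = 0.00741). The call was lost with quantile normalization (adjusted p = 0.169), with median centring (adjusted p = 0.630) and with mitochondrial rows removed (adjusted p = 0.0593). The loss of single exons cannot be seen in a value for the whole gene, and the label was checked no further. The row of Phb2, the partner of Phb in the ring complex, also names Gm23547, and it was at 23.6, 23.6 and 21.9 FPKM in control and 26.8, 27.2 and 27 in knockout libraries. It was higher with no overlap, by 0.22 on the log2 scale (adjusted p = 0.00159).

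Genes of pachytene and of spermatids fell together and far, and genes of diplotene and the divisions fell less evenly. Markers of Sertoli and Leydig cells rose. Genes of spermatogonia and of the start of meiosis went both ways with smaller changes, with more falls than rises at the start of meiosis. For the list counts below, the shares over all tested rows were 40.9% higher and 38.5% lower. The medians of the log2 fold change were lower stage by stage, from -0.07 for undifferentiated spermatogonia over -0.14 for differentiating spermatogonia and -0.30 for meiotic entry, leptotene and zygotene to -3.03 for pachytene. They were -1.16 for diplotene and the divisions, -2.84 for round and -4.14 for elongating spermatids, 1.77 for Sertoli cells and 2.49 for Leydig cells. With a pseudocount of 0.1 FPKM they were -3.43 for pachytene, -5.35 for round and -6.34 for elongating spermatids, so that pachytene and round spermatids changed order. With no filter on low values the Leydig median was 1.53. In these bulk libraries, fewer cells of a type and less RNA per cell cannot be told apart.

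**Figure D1:**
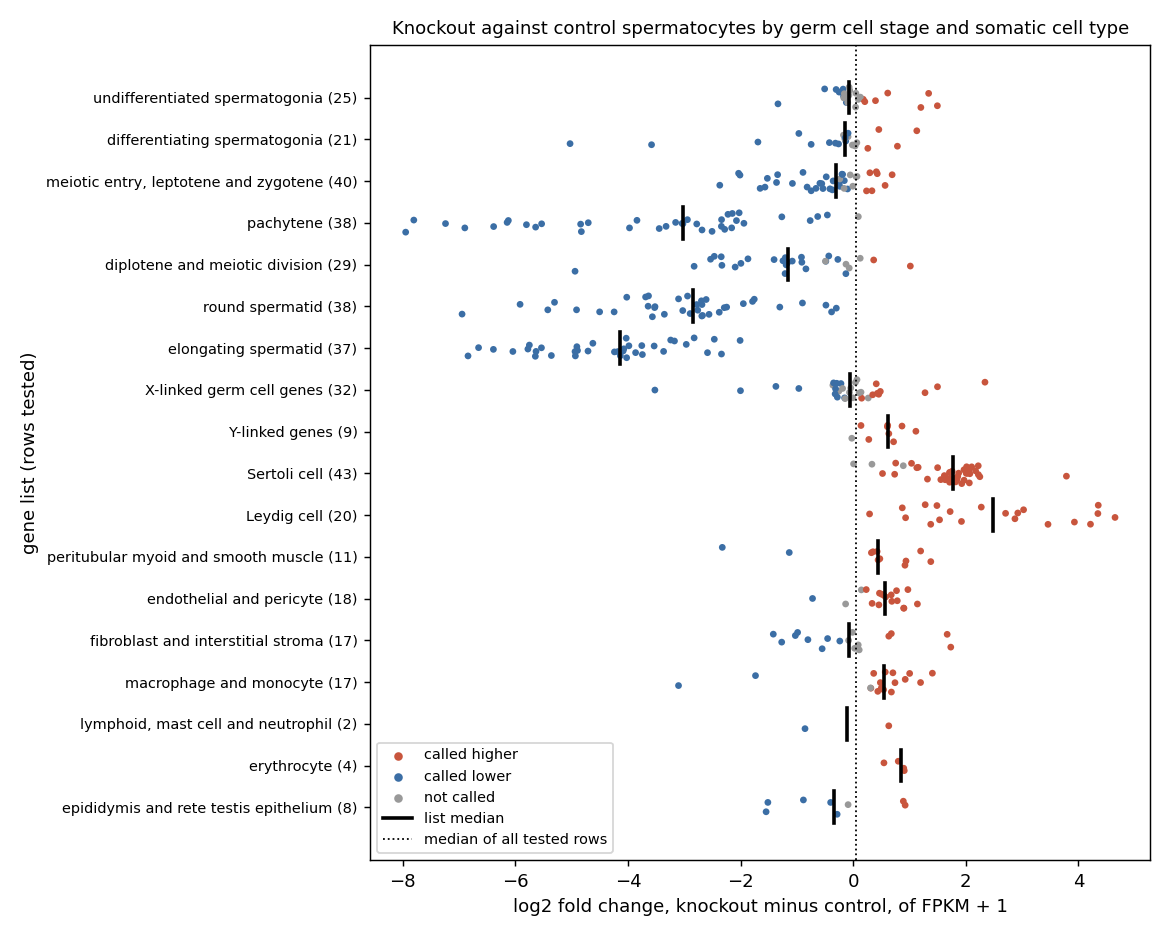
Log2 fold change (knockout minus control, of FPKM + 1) of each tested gene, by gene list, with the number of rows tested in parentheses. Points are single genes coloured by call, black bars are list medians and the dotted line is the median of all tested rows, 0.05. The pachytene and spermatid lists lie almost wholly below 0, with medians of -3.03, -2.84 and -4.14, and the Sertoli and Leydig lists above it.

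Undifferentiated spermatogonia hold the stem cells. Of 25 tested genes, 7 rose and 7 fell, and the list median of -0.07 became 0.09 with median centring and 0.30 with quantile normalization. Id4, which encodes an inhibitor of differentiation found in stem cells, was at 11.8, 11.5 and 11.4 FPKM in control and 3.87, 4.32 and 3.76 in knockout libraries, and fell with no overlap (log2 fold change -1.34, SE 0.0524). Gfra1, the GDNF receptor gene, was at 6.1 ± 0.286 FPKM in control and 4.07 ± 1.06 in knockout libraries (adjusted p = 0.0268), a call that did not hold when a control library was left out, whichever it was (adjusted p = 0.0541 to 0.0762). The syndecan gene Sdc4 rose from 68.9 ± 0.8 to 196 ± 4.61 FPKM and the laminin receptor gene Itga6 from 6.13 ± 0.208 to 17.1 ± 0.362. Both products are also made by somatic cells. Lin28a, an RNA-binding protein gene of spermatogonia, was at 19.9 ± 0.678 FPKM in control and 19 ± 0.537 in knockout libraries and was not called (adjusted p = 0.174).

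Differentiating spermatogonia go on to meiosis. Here 4 of 21 tested genes rose and 11 fell, with a median of -0.14 that became 0.02 with median centring and 0.00081 with quantile normalization. The widest fall was that of Dmrtb1, whose product coordinates the switch from mitosis to meiosis, from 246, 246 and 223 FPKM in control to 5.99, 6.16 and 6.82 in knockout libraries (log2 fold change -5.03, adjusted p = 1.73e-08). Ovol2, a zinc finger gene, fell from 20.9 ± 0.142 to 0.83 ± 0.052, and Ddx4, the germ cell RNA helicase gene, from 157 ± 3.84 to 47.8 ± 1.67. The transcription factor gene Dmrt1, a relative of Dmrtb1, went the other way, from 44.7 ± 0.951 to 61.6 ± 0.295 FPKM. The protease gene Prss50 and the DNA methyltransferase gene Dnmt3a also rose, from 22.5 ± 1.16 to 39.4 ± 1.55 and from 4.33 ± 0.78 to 10.6 ± 0.392. Dazl, an RNA-binding protein gene of all these stages, was at 112 ± 1.85 FPKM in control and 105 ± 1.1 in knockout libraries, a log2 fold change of -0.09, and its sign turned with quantile normalization (0.04) and median centring (0.07).

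Genes of meiotic entry, leptotene and zygotene fell more often than they rose. Of 40 tested, 7 rose (17.5%) and 27 fell (67.5%), against 40.9% and 38.5% of all tested rows. With median centring 10 rose and 20 fell. Stra8, which the retinoic acid signal turns on at entry, was at 37, 36.8 and 37.2 FPKM in control and 34.4, 34.2 and 34.7 in knockout libraries, a log2 fold change of -0.10 that is smaller than the shift between scalings. Sycp3, which encodes the lateral element of the synaptonemal complex, was at 160.5 ± 4.6 FPKM in control and 124 ± 1.73 in knockout libraries. Sycp1, its transverse filament gene, was at 69 ± 0.23 FPKM in control and 58.4 ± 1.36 in knockout libraries. Both fell, with log2 fold changes of -0.37 and -0.24, whereas other genes of the same stages fell further.

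Among the genes that fell further, Spo11, which makes the meiotic DNA breaks, was at 17.4, 17.6 and 17.3 FPKM in control and 2.57, 2.37 and 2.77 in knockout libraries (log2 fold change -2.37, adjusted p = 1.18e-07). The meiotic cohesin gene Stag3 fell from 74.5 ± 0.402 to 24.5 ± 1.31 FPKM. The recombination gene Brme1, listed as 4930432K21Rik, fell from 19.5 ± 0.904 to 4.03 ± 0.845, and the groups of these genes did not overlap. The 7 that rose included Prdm9, which sets recombination sites, from 5.42 ± 0.217 to 7.63 ± 0.163 FPKM, the cohesin gene Rad21l from 4.51 ± 0.325 to 6.32 ± 0.327, Fbxo47 from 4.71 ± 0.351 to 7.46 ± 0.459 and Meiob from 7.72 ± 0.564 to 9.99 ± 0.904. Dmc1, the strand exchange recombinase gene, was at 13, 14 and 8.67 FPKM in control and 16.3, 21.6 and 20.9 in knockout libraries. The third control library was the lowest, and the call was lost without knockout replicate 2 (adjusted p = 0.0539) or 3 (adjusted p = 0.0522).

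**Figure D2:**
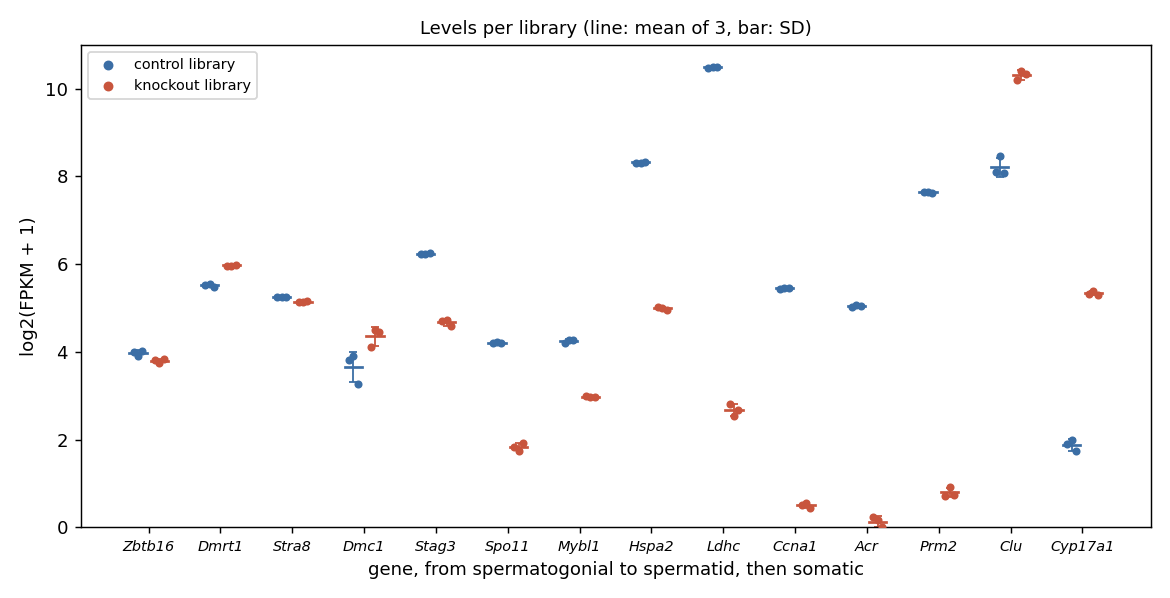
Level of 14 genes in each library on the log2(FPKM + 1) scale, with a line at the mean of 3 libraries and a bar for the SD. The pachytene genes Hspa2 and Ldhc, the division gene Ccna1 and the spermatid genes Acr and Prm2 are far lower in every knockout library, while Stra8 and Zbtb16 lie close together and Clu and Cyp17a1 are higher.

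In pachytene the testis switches on its own glycolytic, chaperone and piRNA genes. Of 38 tested genes, 37 fell and 0 rose, and 34 fell at least 2-fold. Ldhc, the testis lactate dehydrogenase gene, was at 1416, 1429.8 and 1437 FPKM in control and 6.05, 4.79 and 5.38 in knockout libraries (log2 fold change -7.81, SE 0.0704, adjusted p = 8.77e-09). Rbakdn, a long non-coding RNA gene, fell further on this scale, from 559.6 ± 7.84 to 1.27 ± 0.206 FPKM (-7.95). No library of either gene overlapped the other group.

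The pachytene transcription factor gene Mybl1, which switches on many pachytene genes, fell from 17.4, 18.3 and 18.2 FPKM in control to 6.95, 6.87 and 6.8 in knockout libraries (log2 fold change -1.27, adjusted p = 2.72e-07). Tcfl5, another pachytene transcription factor gene, fell from 87.7 ± 3.61 to 9.9 ± 0.61 FPKM. The chaperone gene Hspa2 fell from 318 ± 1.4 to 30.8 ± 0.716, the piRNA pathway gene Mael from 412 ± 3.67 to 63.2 ± 1.76, and the sperm adhesion gene Adam3 from 202 ± 2.51 to 0.34 ± 0.09. The knockout level was 9.23% of control in the median of the list and ranged from 0.169% (Adam3) to 108% (Rnf212b). Rnf212b was at 4.47 ± 0.531 FPKM in control and 4.83 ± 0.629 in knockout libraries and was not called (adjusted p = 0.467). Slc25a31, the testis ADP/ATP carrier gene of the inner mitochondrial membrane, stood near the upper end, at 59.6 ± 0.973 FPKM in control and 38.2 ± 1.12 in knockout libraries. Summed over the list, FPKM made up 1.80% to 1.81% of each control library and 0.101% to 0.107% of each knockout library. Abundant genes weigh most in such sums, with Ldhc at 1416 to 1437 of the 5221 to 5291 FPKM in control libraries.

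Promoters of these genes were searched for 13 short DNA motifs. Of these, 2 are described across lists, chosen after the shares were seen. The first is TAACNG, which MYB family proteins such as the product of Mybl1 bind. In the 250 bases upstream of the RefSeq start on GRCm38.p6, 12 of 31 pachytene promoters (38.7%) held TAACNG on either strand, against 19.8% of all 27025 promoters and 17.4% of promoters of tested rows. The share was 24.4% in promoters of rows that fell at least 4-fold, 12.7% in those that rose at least 2-fold, 12.5% in elongating spermatid genes and 15.6% in Sertoli genes. It was 31.0% in genes of meiotic entry, leptotene and zygotene, 27.3% in round spermatid genes, 26.1% in diplotene and division genes and 25% in macrophage genes. In X-linked germ cell genes it was 36.4%. The other MYB motifs searched differed among themselves. In pachytene promoters CCGTTA had a share of 12.9% (2.17% of all promoters), AACNGTC of 9.68% (6.66%) and ACCGTTA of 0% (0.470%). A match is a description and not a binding site. The sequences below show where the match lies in 6 pachytene genes that fell, 5' to 3' on the strand of the gene, with the matches on either strand in capitals.
Ldhc (chr7:46861203-46861262, plus strand): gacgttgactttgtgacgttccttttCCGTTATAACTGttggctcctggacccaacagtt
Hspa2 (chr12:76404168-76404227, plus strand): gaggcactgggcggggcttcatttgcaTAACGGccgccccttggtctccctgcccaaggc
Piwil1 (chr5:128736155-128736214, plus strand): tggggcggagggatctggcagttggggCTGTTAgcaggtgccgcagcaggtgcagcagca
Tcfl5 (chr2:180642777-180642836, minus strand): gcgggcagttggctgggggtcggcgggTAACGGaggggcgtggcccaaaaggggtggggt
Spag6l (chr16:16829364-16829423, minus strand): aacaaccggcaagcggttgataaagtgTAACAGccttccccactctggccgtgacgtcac
Rfx2 (chr17:56831097-56831156, minus strand): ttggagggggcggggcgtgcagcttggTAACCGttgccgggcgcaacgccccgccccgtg

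The 6 genes with these promoters fell to different degrees. Within the 250 bases Ldhc has 2 matches, and Piwil1, which encodes the pachytene piRNA-binding Piwi protein, also has 2 and fell from 129, 137 and 143 FPKM to 1.75, 1.84 and 1.65 (log2 fold change -5.64). Spag6l, a sperm flagellum gene with 2 matches, fell from 60.1 ± 0.463 to 0.32 ± 0.0721 FPKM. Rfx2, which encodes a transcription factor of spermatid genes, has 1 match and fell from 20.0 ± 5.65 to 1.3 ± 0.0231. Slc25a31, whose promoter is not printed and whose fall was among the smallest of the list, also has 2 matches. Whether the number of matches goes with the size of the fall was not tested. GTTGCC, a site core of RFX factors, was in 9 of 32 elongating spermatid promoters (28.1%), 18.2% of round spermatid promoters, 16.9% of those of rows that fell at least 4-fold and 10.5% of all promoters. Lists that did not fall also held it, with 22.7% of Leydig promoters and 26.3% of lymphoid, mast cell and neutrophil promoters.

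Genes of diplotene and the meiotic divisions fell less evenly. Of 29 tested, 23 fell and 2 rose. Ccna1, the cyclin that meiosis I in males depends on, was at 42.3, 42.8 and 43 FPKM in control and 0.42, 0.48 and 0.37 in knockout libraries (log2 fold change -4.94, adjusted p = 8.59e-09). The kinase gene Aurkc of meiotic spindles fell from 12 ± 0.709 to 0.84 ± 0.104 FPKM. Ccna1 fell furthest on the list, so all other members changed less, Aurkc included. Among them were division genes that mitotic cells use as well, and no comparison of meiotic and mitotic genes was made. Cdc20, an activator of the anaphase-promoting complex, fell from 105 ± 0.405 to 45.5 ± 0.973, the cyclin gene Ccnb2 from 66.5 ± 1.64 to 24.5 ± 0.264 and Cks2 from 151 ± 4.54 to 79.3 ± 2.49 FPKM, with log2 fold changes of -1.19, -1.41 and -0.92. The cyclin gene Ccnb3 rose from 3.8 ± 0.164 to 8.7 ± 0.435 FPKM.

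Spermatid genes were present in the control libraries, although these are labelled spermatocytes, and were lower in knockout libraries. All 38 tested round spermatid genes and all 37 elongating spermatid genes fell. In each list 29 had a knockout mean under 1 FPKM, and genes that pass the filter through control libraries alone can only be lower. The filter left out no gene of either list, and the list medians were the same without it (-2.84 and -4.14). Prm2, whose protamine packs sperm DNA, was at 199, 199.9 and 196 FPKM in control and 0.65, 0.89 and 0.68 in knockout libraries (log2 fold change -6.84, adjusted p = 8.59e-09). The transition protein gene Tnp1 fell from 211 ± 4.74 to 2.88 ± 0.422, the sperm mitochondrial capsule gene Smcp from 124 ± 0.295 to 0.263 ± 0.335 and the zona binding gene Zpbp2 from 98.7 ± 2.73 to 0.65 ± 0.0954. Actl7b, an actin-related gene, fell from 64.4 ± 0.76 to 0.667 ± 0.278. Tekt4, a flagellar tektin gene, was at 28.9, 16 and 28.6 FPKM in control libraries, with the second the lowest, and was listed at 0 in every knockout library.

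The fall was not the same in each spermatid gene. The tubulin gene Tuba3a, which shares near-identical sequence with Tuba3b, so that reads may be split between both, kept 128, 129 and 129.8 FPKM in knockout libraries, against 922, 920.1 and 916 in control. Among round spermatid genes Hook1 was at 13.5 ± 0.649 FPKM in control and 10.1 ± 0.179 in knockout libraries. Cst8, an epididymal and testis cystatin gene, was at 15.1 ± 0.624 FPKM in control and 10.6 ± 1.49 in knockout libraries. Summed over the elongating spermatid list, FPKM made up 1.11% of each control library and 0.055% to 0.0568% of each knockout library. The knockout sums were 165, 162 and 165 FPKM, so most of each was Tuba3a. The shares of the round spermatid list were 0.283% to 0.288% and 0.0157% to 0.0158%.

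**Figure D3:**
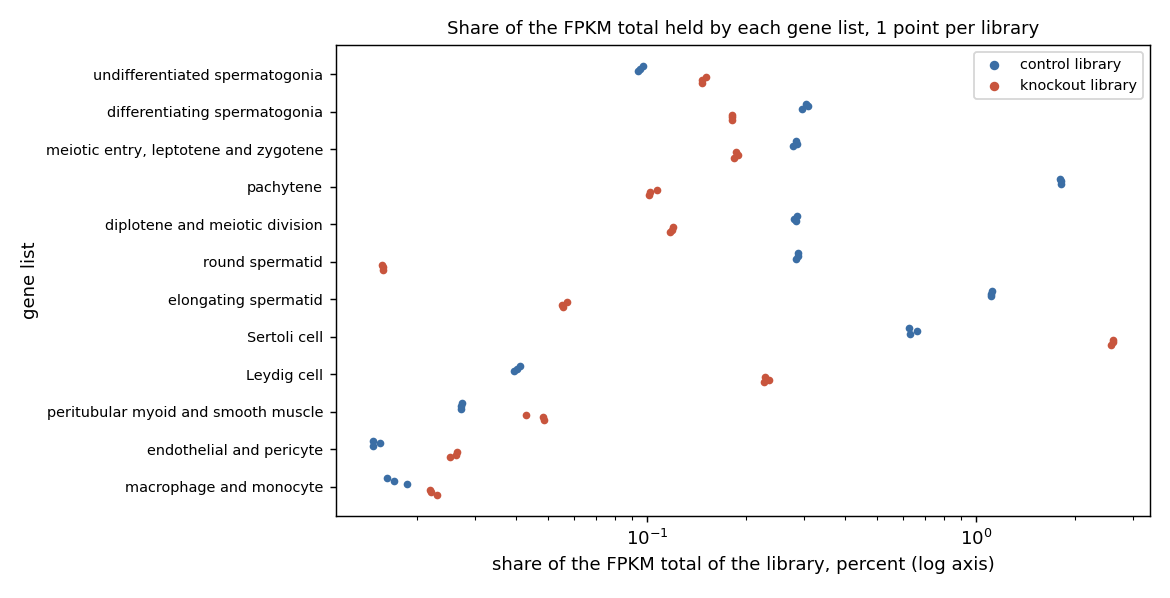
Share of the FPKM total of each library held by 12 gene lists, on a log axis, with 1 point per library. Pachytene genes go from 1.80% to 1.81% in control libraries to 0.101% to 0.107% in knockout libraries, and Sertoli genes from 0.626% to 0.659% up to 2.57% to 2.61%.

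Markers of Sertoli cells rose in 40 of 43 tested genes and fell in 0. Clu, their most abundant gene, was at 272, 350.4 and 267 FPKM in control and 1171, 1355 and 1284 in knockout libraries, a 4.28-fold higher mean (adjusted p = 8.61e-06). Sox9, the factor that sets Sertoli identity, rose from 9.67 ± 0.472 to 34.1 ± 1.49 FPKM and Amh, the anti-Müllerian hormone gene, from 42.7 ± 1.8 to 153 ± 3.37. The prostaglandin synthase gene Ptgds rose furthest, from 4.59 ± 0.293 to 76.1 ± 2.74. The fold changes lay close together, with an interquartile range of 1.53 to 2.01 on the log2 scale. The 3 that were not called were Cdh2, Dhh and Trf (log2 fold changes 0.01, 0.89 and 0.33). Sertoli genes were also in the control libraries, with 0.626% to 0.659% of summed FPKM, against 2.57% to 2.61% in knockout. The part of these cells in the other results was not tested.

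All 20 tested of 27 listed Leydig cell genes rose, against 40.9% of all tested rows. Hsd3b6, Klk1b21, Klk1b24 and Klk1b27 were under 1 FPKM in every control library and passed the filter through knockout libraries alone. For such genes a rise follows from the filter. Cyp17a1, the androgen-making hydroxylase gene, was at 2.76, 2.99 and 2.33 FPKM in control and 39.1, 41.1 and 38.4 in knockout libraries (log2 fold change 3.46, adjusted p = 1.20e-07). The steroid dehydrogenase genes Hsd17b3 and Hsd3b6 rose from 19.9 ± 1.53 to 68.2 ± 9.15 and from 0.33 ± 0.0781 to 23.7 ± 1.58 FPKM, and Star, which brings cholesterol into mitochondria, from 4.32 ± 0.115 to 12.8 ± 0.235. Insl3, the hormone gene of Leydig cells, shares its row with Jak3, and that row rose from 3.1 ± 0.0603 to 82.5 ± 2.24. Kallikrein genes Klk1b21, Klk1b24 and Klk1b27 are close paralogs and may share reads. Lhcgr, the luteinizing hormone receptor gene, was at 0.177 ± 0.0473 FPKM in control and 1.04 ± 0.116 in knockout libraries and was not tested.

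The list medians of other cell types of the testis lay closer to 0. Endothelial genes rose in 15 of 18 (median 0.56), macrophage genes in 14 of 17 (0.54) and peritubular genes in 9 of 11 (0.44), against 40.9% of all tested rows. With quantile normalization these medians were 0.92, 0.95 and 0.78, and with the filter at 5 FPKM they were 0.77, 0.96 and 0.92. Cdh5, the endothelial cadherin gene, rose from 5.35 ± 0.156 to 9.82 ± 0.492 FPKM and the smooth muscle actin gene Acta2 of peritubular cells from 10.7 ± 0.494 to 25.9 ± 0.21. Of the 2 peritubular genes that fell, Actg2, another smooth muscle actin gene, went from 11.4, 11.4 and 11.1 FPKM in control to 1.14, 2.05 and 1.26 in knockout libraries (log2 fold change -2.33). Among macrophage genes Cd68 rose from 5.13 ± 0.476 to 11.3 ± 1.04, while Aif1 fell from 11.3, 11.3 and 13.6 FPKM in control to 0.37, 0.72 and 0.48 in knockout libraries. The defining leukocyte markers Ptprc, Adgre1 and Itgam were all under 1 FPKM in both groups, with means going from 0.16 ± 0 to 0.17 ± 0.0173, from 0.693 ± 0.0379 to 0.863 ± 0.0907 and from 0.07 ± 0.03 to 0.143 ± 0.0929 FPKM.

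Fibroblast genes moved in both directions, 4 of 17 higher and 8 lower, and their median of -0.08 became 0.08 with median centring. The collagen genes Col1a1 and Col3a1 fell from 14.1 ± 0.471 to 6.39 ± 0.186 and from 11.3 ± 0.219 to 3.62 ± 0.177 FPKM, and Gas6, a ligand gene, rose from 28.4 ± 0.443 to 96.6 ± 2.63. The globin rows rose, with Hbb-bs going from 42.8 ± 2.69 to 80.5 ± 1.16. Sox17, an endothelial gene, was at 1.22 ± 0.211 FPKM in control and 0.347 ± 0.146 in knockout libraries, with a sign that turned with quantile normalization (0.06). Epithelial genes of the epididymis and rete testis fell in 5 of 8, with the keratin gene Krt8 going from 6.6 ± 0.347 to 1.66 ± 0.191. Of 26 lymphoid, mast cell and neutrophil genes only 2 reached the filter, with 1 called in each direction.

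The X chromosome stood apart from the autosomes. Of 645 tested rows on it, 439 (68.1%) rose and 83 (12.9%) fell, with a median of 0.66 that was 0.06 with no filter on low values and 0.93 with quantile normalization. Across the 19 autosomes 35.5% to 45.2% of rows rose and 33.9% to 44.5% fell, with medians from -0.08 to 0.15. The median FPKM of tested X rows over that of tested autosomal rows was 0.621, 0.613 and 0.634 in control libraries and 1.16, 1.17 and 1.17 in knockout libraries. Over protein-coding rows alone it was 0.547, 0.553 and 0.552, and 1.05, 1.03 and 1.05. A row can pass the filter through 1 group alone, which can move this ratio, and it was not computed without the filter. Sertoli and pachytene medians in the same libraries were 1.77 and -3.03, and the part of each in this difference was not tested.

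**Figure D4:**
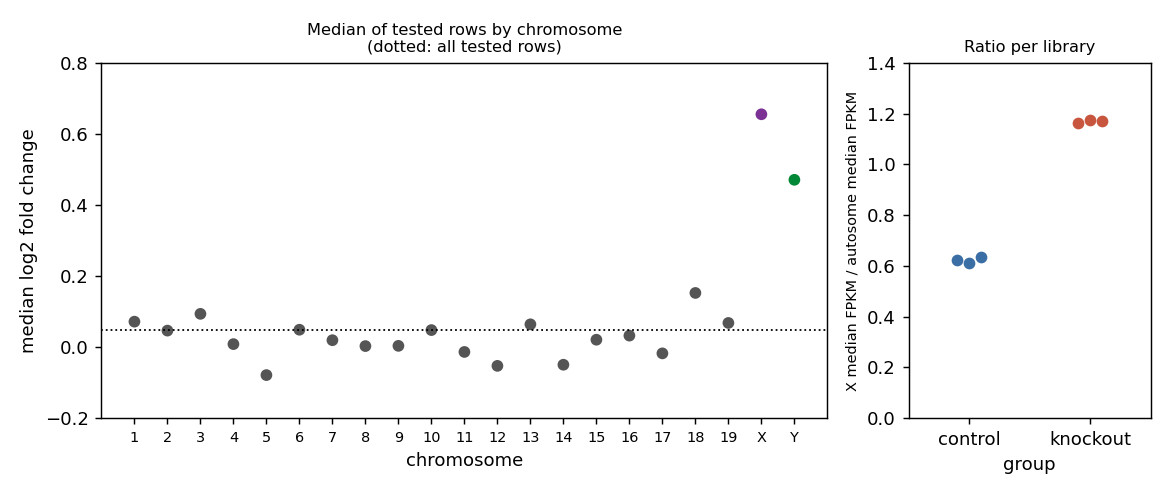
Left, median log2 fold change of the tested rows of each chromosome, with the median of all rows as a dotted line. Right, median FPKM of tested X rows divided by that of tested autosomal rows, 1 point per library. The X median of 0.66 lies above all 19 autosomes, whose highest is 0.15, and the ratio is 0.613 to 0.634 in control and 1.16 to 1.17 in knockout libraries.

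All 6 X-linked protein-coding rows most abundant in control libraries rose, among them Maged1, a melanoma antigen gene expressed in many tissues, from 116 ± 2.03 to 397 ± 3.23 FPKM, the ribosomal protein gene Rps4x from 66.5 ± 1.6 to 179 ± 2.12 and the Sertoli homeobox gene Rhox8 from 58.1 ± 1.4 to 200.1 ± 3.57. The second most abundant, the germ cell transcription factor gene Taf7l, rose less, from 80.1 ± 1.7 to 88.9 ± 1.54 (log2 fold change 0.15). The largest fall on the X was that of Akap4, the fibrous sheath gene of the sperm tail, at 37, 34.3 and 35.5 FPKM in control and 0.21, 0.15 and 0.33 in knockout libraries. X-linked germ cell genes, a list of several stages, were split, with 9 of 32 higher and 11 lower and a median of -0.05 that became 0.11 with median centring. Nxf3, an RNA export factor gene, rose from 6.89, 7.34 and 7.07 FPKM to 39.7, 40.7 and 39.6, whereas Nxf2 was at 40.3 ± 1.22 FPKM in control and 40.1 ± 0.425 in knockout libraries and was not called. It was called higher with median centring (0.15, adjusted p = 0.00339) and quantile normalization (0.11, adjusted p = 0.0145). Of 9 tested Y-linked genes, 8 rose (88.9%), against 40.9% of all tested rows. Ddx3y, an RNA helicase gene, went from 5.28 ± 0.55 to 12.6 ± 1.93 FPKM. Uba1y, a ubiquitin enzyme gene, was not called.

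Retrocopies on autosomes take over for X-linked parent genes in pachytene cells. In 10 of 10 pairs examined, the X-linked parent rose and the autosomal copy fell. Of all tested X rows 68.1% rose, and of all tested rows 38.5% fell. The row of the copy Utp14b also names Acsl3, so its fall cannot be given to the copy alone. Pgk1, the glycolytic phosphoglycerate kinase gene, was at 12.5, 11.4 and 11.8 FPKM in control and 32.6, 35.5 and 35.7 in knockout libraries, and its copy Pgk2 at 65.5, 67.5 and 68.9 and 0.12, 0.18 and 0.38. The parents changed by 0.41 to 1.46 and the copies by -6.95 to -0.29 on the log2 scale. The copy exceeded the parent in 9 of 10 pairs in control and in 3 of 10 in knockout libraries.

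Cetn1, the copy of the centrin gene Cetn2, changed most, from 203 ± 2.43 to 0.65 ± 0.08 FPKM, while Cetn2 rose from 11.2 ± 0.104 to 17.5 ± 0.804. The ribosomal gene Rpl10l fell from 122 ± 1.38 to 29.8 ± 2.72 FPKM and its parent Rpl10 rose from 29.7 ± 2.23 to 62.9 ± 2.66. Rpl39l fell from 184 ± 4.95 to 41.6 ± 1.68, with the parent Rpl39 at 21.8 ± 5.67 FPKM in control and 57.1 ± 15 in knockout libraries. Pdha2, the copy of the pyruvate dehydrogenase gene Pdha1, was at 50.7, 12.1 and 51.2 FPKM in control and 6.94, 7.51 and 8.19 in knockout libraries. The second control library lay far below the other two, near the knockout values, and the call was lost without control replicate 1 or 3 or knockout replicate 1 (adjusted p = 0.0581, 0.0564 and 0.0507). Utp14b shares its row with Acsl3, and its fall was lost with median centring (adjusted p = 0.0608).

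**Figure D5:**
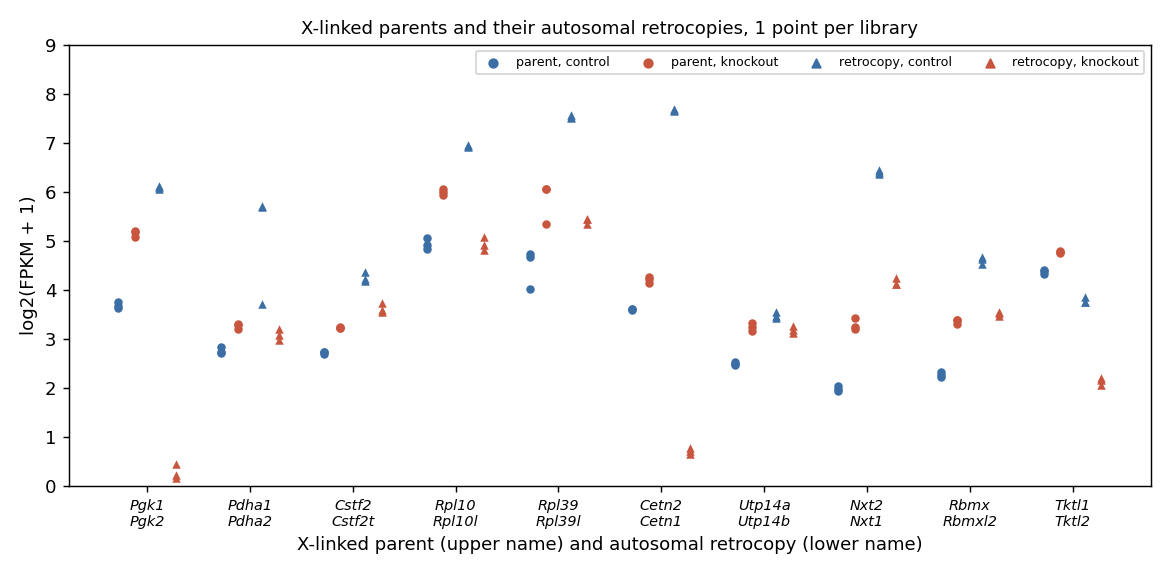
Level of 10 X-linked parents (circles) and their autosomal retrocopies (triangles) in each library on the log2(FPKM + 1) scale, with control in blue and knockout in red. Parents are higher and copies lower in knockout libraries in all 10 pairs, and the copy exceeds the parent in 9 pairs in control and 3 in knockout. The row of Utp14b also names Acsl3.

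Most of the rows that dominate control spermatocytes fell, in a set chosen by control level, which by itself favours falls. Of the 100 most abundant control rows that name 1 gene and are not on the mitochondrial chromosome, 67 fell, 51 at least 4-fold, and 27 rose. Over all tested rows 38.5% fell and 40.9% rose. Of the 100 control rows, 39 were also among the 100 most abundant in knockout. No count of rises and falls was made for the 100 most abundant knockout rows. Cox8c, a testis cytochrome oxidase subunit gene, was at 861 ± 27.3 FPKM in control and 11.2 ± 1.01 in knockout libraries. Rsph1, a radial spoke gene of flagella, was at 732 ± 35.2 FPKM in control and 29.4 ± 1.28 in knockout libraries. Hsp90ab1, a chaperone gene, rose from 435 ± 0.991 to 746 ± 2.73, and Eef2, an elongation factor gene, from 545 ± 6.83 to 593 ± 4.74. Of the tested rows, 612 had a control mean of at least 10 FPKM and a knockout mean under 1, and 8 rows had the reverse. All 3 knockout libraries listed 434 tested rows at 0, and all 3 control libraries listed 1, the kallikrein gene Klk1b1.

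Outside the lists, the largest falls were those of Adam5 (log2 fold change -7.36), Spata4 (-7.30), Cmtm2b (-7.16), Pgam2 (-7.13), Fbp1 (-7.04) and Hrasls5 (-7.01). Fbp1 and Pgam2, which encode enzymes of sugar metabolism, fell from 223 ± 1.57 to 0.7 ± 0.0693 and from 367 ± 7.33 to 1.64 ± 0.271 FPKM. The largest rises outside the lists were those of Lcn2 (4.67), Agt (4.06), Apoc1 (3.49) and Trrap (3.43). Agt, the angiotensinogen gene, rose from 3.16 ± 0.285 to 68.6 ± 4.32 FPKM. The Trrap row is an assembled transcript, at 0.93, 0.36 and 7.78 FPKM in control and 30.1, 32.2 and 26.6 in knockout libraries, with the third control library well above the other two.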

How the data were processed

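The values deposited by the authors are FPKM to 2 decimals. The submitters' processing notes name HISAT2 2.1.0, DESeq, GRCm38 and mm10, with no role for any. How FPKM was computed, with which annotation and filters, is not given there. Libraries were made with a directional kit, per the labels' protocols. Whether strand was used in counting is not given, so a gene and an overlapping antisense gene cannot be told apart. Rows without a gene name, 164 in number, held 0.750% to 0.918% of the FPKM total. Rows that name several genes, 958 in number, cannot be given to 1 of them and were kept on their lists. FPKM does not correct for composition.

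Values were tested with limma 3.58.1 (R 4.3.3, with a trend of variance on mean expression) on log2(FPKM + 1), which understates changes of low genes. The design had provided for counts too. The files hold FPKM, so no count test was run. Adjusted p-values come from this fit over 15957 rows. Gene lists were described by counts and medians, with no set test. The libraries, lists and named genes were chosen with earlier results of these data known. Named genes are Phb, Phb2, the 10 largest changes each way above 5 FPKM with no overlap and 1 gene name that is not a clone name, every retrocopy pair, and per list the 3 most abundant members, the 2 largest changes each way and each called member that went against the rest. Some genes that this rule names are not reported here. All other genes named were chosen after their values were seen, among them Lin28a, Ddx4, Stra8, Mybl1, Tcfl5, Hspa2, Piwil1, Spag6l, Rfx2, Rnf212b, Slc25a31, Hook1, Cst8, Tekt4, Sox9, Amh, Star and Ptprc.

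Positions are from GENCODE M21 on GRCm38, and promoters from RefSeq on GRCm38.p6, with the first entry of each symbol. The 11 motifs not described across lists included CCGTTA with ACCGTTA and AACNGTC for MYB proteins, ACAATGG for SOX proteins and CAGCTG as an E-box. The rest were CNCCTCAG, GCGCGG for E2F-like sites, GTTGCCAT for RFX, TATAAA for the TATA box and TGACGT with TGACGTCA for CREM. These 11 were searched on both strands and lay in 0.470% to 16.7% of all promoters. The MYB motifs overlap each other, the longer RFX motif holds the shorter one, and the longer CREM motif holds the shorter one. Alternatives were another pseudocount (0.1 FPKM), no filter, a filter at 5 FPKM, quantile normalization, median centring, removal of mitochondrial rows, a replicate block, limma without trend, rows naming 1 gene only, and each library left out. Python 3.11.15 with matplotlib 3.10.9, pandas 2.3.3 and numpy 2.4.6 was used for all else.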

Additional observations from a re-analysis of the deposited data

How the results depend on the processing

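Of 138 named genes, 125 kept their direction and side of the threshold in every alternative that tested them, which was 120 genes with the filter at 5 FPKM, 129 without rows naming several genes, 137 with mitochondrial rows removed and all 138 in the others. With a filter at 5 FPKM, which tests fewer rows, 4344 rows were called higher and 3896 lower, with 282 and 31 on the X chromosome and 1 higher among diplotene and division genes. With no filter, 212 X rows were lower, and 1 Leydig gene was lower. Undifferentiated spermatogonia had 14 genes higher and 2 lower with quantile normalization, 1 lower with median centring, 4 lower with mitochondrial rows removed, and 4 to 6 lower with 1 library left out, the fewest without control replicate 2 or 3. Differentiating spermatogonia had 7 lower with quantile normalization and 7 higher and 7 lower with median centring. The sign turned for Dazl (0.043 with quantile normalization, 0.069 with median centring), Nxf2 (0.11 and 0.15) and Sox17 (0.063 with quantile normalization). Calls of Dmc1, Gfra1, Lyz2, Magea4, Magea5, Mageb4 and Pdha2 were lost without 1 or more single libraries. The cause was not tested.

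The values showed no sign that the replicate numbers pair the libraries. Deviations from the group means of same-numbered libraries correlated at 0.00744, -0.0539 and 0.00738. With 3 libraries per group, such values cannot show whether same-numbered libraries shared a litter or a processing step. With the replicate number as a block 12482 rows were called, 6427 higher and 6055 lower, and no named gene changed its call. Depth is known only roughly, so no counting interval is given for low values.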

Other observations

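Most tested long non-coding RNA genes were lower in knockout libraries, and the difference from protein-coding genes was not tested. Of 619 tested lincRNA rows 73.8% were called lower and 16.2% higher, with a median log2 fold change of -1.39, and 65.1% fell at least 2-fold. Of 487 antisense rows 67.6% were lower, with a median of -1.04, and of 69 rows of bidirectional promoter RNAs 69.6% were lower, with a median of -1.21. Of 12591 protein-coding rows 36.8% were lower and 45.6% higher, with a median of 0.10. Processed pseudogenes were closer to balance, with 27.9% of 1128 rows higher and 21.7% lower. Antisense values may include reads of the sense gene. The abundant lincRNA AY702103 was at 19.6 ± 0.391 FPKM in control and 0.0467 ± 0.0115 in knockout libraries. It passed the filter through control libraries alone. Rows that do so can only be lower, and the shares by RNA type were not computed without the filter.

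The row shared by Malat1, a nuclear RNA of most cells, and Gm27694 was at 10.4, 43.6 and 44.7 FPKM in control and 179.7, 85.5 and 176.8 in knockout libraries, with control replicate 1 and knockout replicate 2 below the others of their groups. Of 29 rows of the mitochondrial chromosome 26 were higher and 0 lower, with a median of 0.72, against 40.9% higher and 38.5% lower of all tested rows. Rows of nuclear copies of mitochondrial sequence also had high values, which may include reads of the mitochondrial chromosome itself. Gm28661 on chromosome 1, for example, was at 4709.8, 3944 and 5777 FPKM in control and 4188, 6622 and 7415 in knockout libraries, with no call. Such rows stayed in the setting with mitochondrial rows removed and among the 100 most abundant control rows.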
